A study of Homo sapiens with 20 samples.

Results

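DEAD box and DEAH box proteins are the largest families of RNA helicases, enzymes that use ATP to open RNA duplexes or to strip proteins from RNA. They are named after the amino acids of their ATP-binding core, and they act at nearly every step in the life of an RNA, from splicing and ribosome assembly to export, translation and decay. N6-methyladenosine (m6A) is written by a nuclear methyltransferase complex at DRACH sites (where D stands for any base but C, R for a purine and H for any base but G), mostly in long internal exons and around stop codons, and it is read by proteins that change how long an mRNA lasts and how well it is translated.

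The members were the protein-coding genes of the GENCODE 44 annotation whose symbols start with DDX or DHX and a number, together with EIF4A1, EIF4A2 and EIF4A3, and without DDX3Y. They were 56 of 20046 protein-coding genes. The question was where the mRNAs of these helicases carry m6A peaks in a pair of bladder cancer cell lines and whether the peaks differ between them. T24 is a cisplatin-sensitive line. T24R2 is the cisplatin-resistant line obtained from T24 by serial exposure to the drug, so a single sensitive line is compared with a single resistant derivative. The resistant line was kept in cisplatin, according to the study's methods. Both lines are labelled WT and were collected on day 3. RNA was fragmented and precipitated with an antibody against m6A (MeRIP-seq), and 5 pull-down libraries of each line had a deposited peak list called against input RNA. Nothing in the labels says whether the 5 replicates were separate cultures, so p-values measure only the spread between these libraries.

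The peak lists held 17203 to 22901 peaks in T24 and 22671 to 33120 in T24R2. They give no read counts, so the depth of each library is unknown, and a missing peak may mean little methylation, little transcript or shallow sequencing. Less transcript and less methylation cannot be told apart in these lists. Of 12 urothelial marker genes, 7 had an exonic peak in some library, KRT7 and FOXA1 in all 10, while GATA3 and ELF3 had one in 5 of 5 T24 libraries and in 0 of 5 T24R2 libraries. Of 7 markers of other cell types, 4 had a peak in some library, with PECAM1 in all 10. CD68 had one in 5 of 5 T24 libraries and in 1 of 5 T24R2 libraries. PTPRC, CD3E and DES had none.

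A peak was assigned to a member when its summit lay in one of the gene's exons. Peaks of the 10 lists that touched were merged into regions, which gave 105 member regions among 43676. The strongest peak of 8 of these regions is shown here by the 29 bases around the DRACH site nearest its summit. The 8 come from members named below and include strongly enriched regions, but they are not the 8 strongest. DDX3X is among the members named for a known role. The 5 letters of DRACH are in capitals, and every line reads 5′ to 3′ along the mRNA, on hg38.
DDX53: gattaaaattctGGACAgagcaaatcaga
DHX33: actgaaccatatAGACAtggacatatcat
DDX20: cttacagctcaaGAACCtcttcccagagc
DDX19B: gtacccacgaaaTGACAgcaaagatgaga
DDX23: agatgccccaggAGACCtggcaccatgag
DHX34: tgcctcctcctaGAACAagggagggcagg
EIF4A3: gtgctcttccgcGGACTctgaatcatggc
DDX3X: aagaaatgaaagGAACAatcagcagccct

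These windows lie at chrX:23001803-23001831 (plus strand) in the single exon of DDX53, chr17:5444019-5444047 (minus strand) in the 3′UTR of DHX33, chr1:111766397-111766425 (plus strand) in the last coding stretch of DDX20, and chr16:70334819-70334847 (plus strand) in the 3′UTR of DDX19B. The others lie at chr12:48830033-48830061 (minus strand) in the 3′UTR of DDX23, chr19:47353032-47353060 (plus strand) just inside the coding sequence of DHX34, chr17:80146957-80146985 (minus strand) at the 5′ end of EIF4A3, and chrX:41347878-41347906 (plus strand) in the 3′UTR of DDX3X. The adenosine of the motif lay within 11 nt of the summit in the first 6. In DHX33 the GGACA left in lower case is another DRACH site, and its adenosine is as near to the summit as the marked one. It lay 41 nt downstream of the summit in EIF4A3 and 32 nt downstream in DDX3X. A motif match is a description of the window and does not show which base was methylated.

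An exonic peak was present in at least 1 library for 44 of the 56 members, 78.6%, against 51.1% of all protein-coding genes, and in all 10 libraries for 27 members, 48.2%, against 27.5%. The 12 members with no exonic peak in any list were DDX25, DDX27, DDX39B, DDX4, DDX43, DDX49, DDX52, DDX60, DHX35, DHX58, DHX9 and EIF4A1. The peak lists give no transcript level, and its part in these shares was not tested. The median coding length was 2236.5 nt in the members with a peak and 1992 nt in those without.

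**Figure D1:**
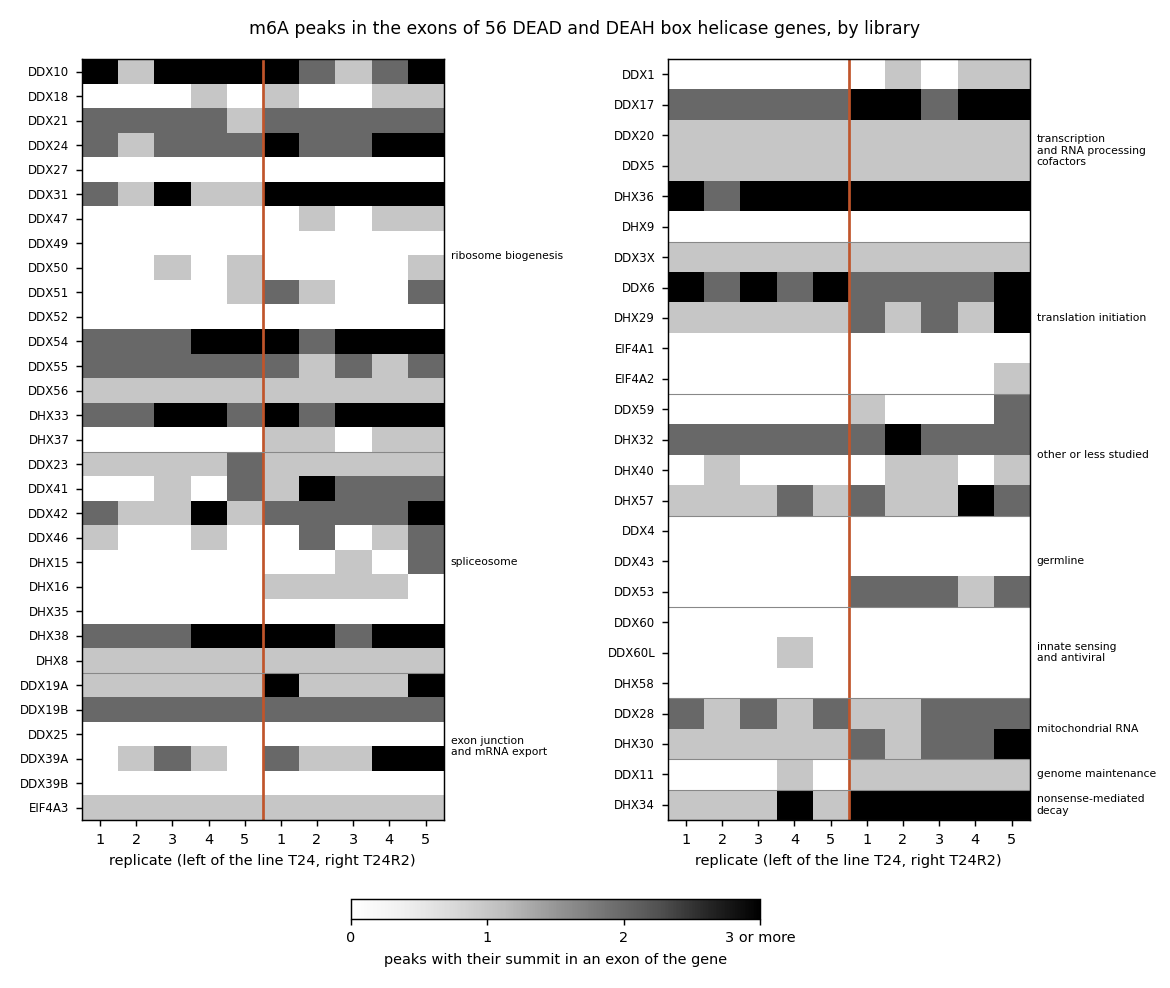
Number of peaks with their summit in an exon of each of the 56 helicase genes (rows, grouped by role) in the 5 T24 and the 5 T24R2 libraries (columns). Darker cells hold more peaks, and 27 rows are filled in all 10 libraries while 12 rows are empty.

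By role, ribosome biogenesis was the largest group. Its 16 members act as helicases of the nucleolus that remodel pre-rRNA, and 13 of them had a peak, 8 in all 10 libraries. Of 9 spliceosomal helicases, which drive the rearrangements of splicing, 8 had a peak and 4 had one in every library (DDX23, DDX42, DHX38 and DHX8). Of 6 members of the exon junction and mRNA export group, DDX19A, DDX19B and EIF4A3 were marked in every library, DDX39A in 3 T24 and 5 T24R2 libraries, and DDX25 and DDX39B in none. DDX39A and DDX39B are close relatives that release mRNA for export, and they differed in whether any peak was called.

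Of the 5 members placed with translation initiation, DDX3X, DDX6 and DHX29 were marked in every library. EIF4A2, one of the subunits that unwind the 5′UTR for the ribosome, had a single peak, with a fold enrichment of 2.86 in T24R2 replicate 5, in an exon outside its canonical transcript. EIF4A1, its close paralog, had none. EIF4A1 has processed pseudogenes and only uniquely mapped reads were used, so the missing peak is uncertain. Among their partners fixed for comparison, EIF4G1, the scaffold that holds eIF4A on the cap, had 10 regions and a peak in all 10 libraries, while EIF4G2 and EIF4H had none. In all, 5 of the 7 partners had a peak and 1 had one in all 10 libraries.

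Transcription and RNA processing cofactors had 5 of 6 members marked, 4 in every library, and both mitochondrial helicases, DDX28 and DHX30, were marked in every library. By contrast 1 of 3 germline members and 1 of 3 members of the innate sensing group had a peak. In the latter group this was a single peak of DDX60L in T24 replicate 4, a gene whose close neighbour DDX60 shares much of its sequence. The 17 RNA helicases of other families include UPF1, DICER1 and the RNA sensors RIGI and IFIH1. They had a peak in 14 cases and in all 10 libraries in 11. Their median coding length was 4293 nt, against 2202 nt for the members, and its part in these counts was not tested.

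More members were marked in each resistant library than in any sensitive one, as was true of genes as a whole. T24 replicates 1 to 5 had 28, 29, 30, 32 and 30 marked members, and T24R2 replicates 1 to 5 had 36, 38, 34, 37 and 42. The groups did not overlap, with means of 29.8 ± 1.48 and 37.4 ± 2.97 (SD, n = 5 each). Among all protein-coding genes 6678 to 7570 were marked per T24 library and 7774 to 8931 per T24R2 library, again without overlap, and the T24R2 lists were longer. When every list was held to its 17203 strongest peaks by q-value, members numbered 24 to 29 in T24 and 28 to 33 in T24R2, and the groups overlapped. All protein-coding genes then numbered 6466 to 6804 in T24 and 6724 to 7135 in T24R2, which overlapped as well.

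**Figure D2:**
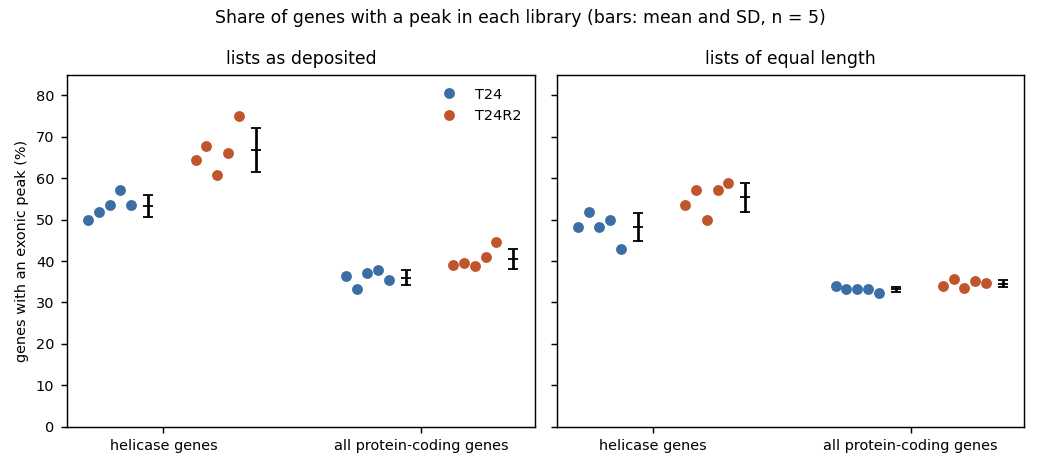
Percentage of the 56 helicase genes and of all protein-coding genes with an exonic peak in each library (points), with the mean and SD of 5 libraries, for the lists as deposited (left) and for lists held to the same number of peaks (right). The gap between lines of 7.6 helicase genes with the lists as deposited is 4 with lists of equal length.

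Of the 17 members marked in some but not all libraries, 15 were marked in more T24R2 than T24 libraries and 2, DDX50 and DDX60L, in more T24 libraries. The same split over all protein-coding genes is not given here, so these counts are not a result about the helicases. At the gene level 4 members had an unadjusted p under 0.05 in Fisher's exact test of 5 against 5 libraries, all in the direction of T24R2, where 5.80% of the 10237 genes with a peak had such a p. None had one in the direction of T24, where the share was 2.28%. None passed at an adjusted p of 0.05, the lowest over all genes being 0.203.

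Among regions the same test gave 9 members of 105 with an unadjusted p under 0.05, all called more often in T24R2, beside 7.11% of all 43676 regions in that direction. In the other direction there were 0 members, beside 2.09% of all regions. The count in the members is therefore close to what the whole series gave, and the smallest adjusted p over all regions was 0.195. Only 18 of the 105 regions were called in 4 to 6 of the 10 libraries, the range in which such a test can reach this level at all.

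DDX53 had the highest folds of the 9 regions. It is an intronless gene on the X chromosome, also known as the cancer testis antigen CAGE, that is silent in most adult tissues. No T24 library had a peak in its region chrX:22999938-23002151, while the T24R2 replicates 1 to 5 had maximum folds of 14.7, 18.9, 10.2, 19.8 and 9.73. Every T24R2 library therefore had a peak, and in each it ranked high in its list, with a mean percentile of 89.2 ± 9.41 (SD, n = 5). Fisher's exact test gave p = 0.00794, the smallest that 5 against 5 libraries allow, and an adjusted p of 0.195 over all regions. This pattern of 0 T24 and 5 T24R2 libraries held for 2 of the 105 member regions. It also held for 581 of 25300 exonic regions of all protein-coding genes and for 1320 of all 43676 regions.

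The DDX53 peaks formed a pair of clusters along the coding sequence. In 4 T24R2 libraries a peak had its summit 147 to 243 nt from the start codon, at codons 50 to 82, with folds of 5.75 to 13.4. In all 5 libraries a second peak had its summit 1495 to 1749 nt from the start codon, at codons 499 to 584, with folds of 9.10 to 19.8. In replicate 4 a single peak spanned both places. The 4 codons of the DEAD motif itself, starting at codon 376, lay between the clusters. The other germline helicases, DDX4 (VASA) and DDX43 (HAGE), had no peak in either line. The region was also present in 0 T24 and 5 T24R2 libraries with lists of equal length and with a −log10 q of at least 10. Whether DDX53 mRNA itself was present in T24 cannot be read from the lists.

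The remaining 8 regions had lower folds or a peak in T24 as well. DDX54, a nucleolar helicase that also binds nuclear receptors, had a region in its exon 15 (chr12:113164100-113164339) in 0 T24 libraries and in 5 T24R2 libraries, with folds of 4.33, 5.62, 2.42, 5.01 and 5.58 (exact p = 0.00794). DDX54 was nevertheless marked in every library of both lines through other regions. Of those, only the 3′UTR region was called in all 10 libraries. It overlaps exons of CFAP73, so its peaks can belong to either gene. With lists of equal length 0 T24 and 4 T24R2 libraries had the exon 15 region, and with peaks required to cover at least 50% of it the numbers were 0 and 3.

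DHX34, which promotes the activation of UPF1 in nonsense-mediated decay, had 2 of the 9 regions. The 3′UTR region (chr19:47381916-47382399) had a fold of 7.75 in T24 replicate 4 and no peak in the other T24 libraries, against 6.26, 9.82, 7.12, 12.6 and 12.98 in T24R2 (exact p = 0.0476, adjusted p = 0.517). The exon 14 region had a fold of 3.90 in T24 replicate 4 and 3.32 to 10.1 in T24R2, with the same p. T24 replicate 4 was the T24 library with the most peaks in its list.

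DDX11, a DNA helicase of sister chromatid cohesion, had its only region in the 3′UTR (chr12:31104343-31104735), with a fold of 5.56 in T24 replicate 4 and 4.32, 5.79, 6.41, 10.7 and 9.40 in T24R2 (exact p = 0.0476). Copies of DDX11 near chromosome ends resemble it closely, so its peaks are uncertain. DDX31, a nucleolar helicase, had a region at its stop codon (chr9:132594394-132595158) in T24 replicate 3, with a fold of 7.91, and in all 5 T24R2 libraries, with folds of 6.14, 3.43, 8.62, 13.4 and 13.4.

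DHX37, which acts in assembly of the small ribosomal subunit, had its only region in the 3′UTR, in 0 T24 libraries and 4 T24R2 libraries, with folds of 8.15, 7.59, 6.92 and 4.69 in replicates 1, 2, 4 and 5. DHX16, a spliceosomal ATPase, had its only region in exon 2, in replicates 1 to 4 of T24R2, at folds of 2.36 to 2.82 that stood at the mean percentile 1.42 of their lists. The DDX17 region was in an exon outside its canonical transcript, in 4 T24R2 libraries, at folds of 2.97 to 3.58. With lists of equal length 4 of the 9 regions still had an unadjusted p under 0.05, those of DDX53, DDX54, DDX11 and the 3′UTR of DHX34. With a −log10 q of at least 10 there were 3, those of DDX53, DDX54 and the 3′UTR of DHX34.

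The members' peaks stood low in the lists. The median percentile of their peaks by fold within each list averaged 21.4 ± 6.07 (SD) over the T24 libraries and 27.6 ± 3.28 (SD) over the T24R2 libraries, with n = 5 for both, where all exonic peaks had 48.4 and 49.7. The median fold was 4.96 against 6.94 for all exonic peaks in T24, and 5.30 against 6.82 in T24R2. Of the 105 regions, 35 were called in all 10 libraries, 33.3%, against 31.5% of exonic regions of all genes. The mean percentile of those 35 ranged from 2.26 to 92.2, and 16 were above the middle of their lists, 45.7%, against 73.7% of all 9577 regions called in every library.

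The strongest constant region was that of DHX33, a DEAH box helicase of rRNA transcription and translation initiation, whose 3′UTR region (chr17:5443664-5444512) had folds of 15.9, 13.4, 16.7, 18.7 and 16.8 in T24 and 13.4, 12.5, 11.7, 15.6 and 14.8 in T24R2. Its percentile within the list (mean ± SD of 5 libraries) was 94.7 ± 2.41 in T24 and 89.8 ± 4.29 in T24R2, and the folds of the lines overlapped. The median summit lay 285.5 nt past the stop codon. The centred log2 difference, T24R2 minus T24, was -0.36 ± 0.21 (SE), with an adjusted p of 0.491 from limma.

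DDX20 (Gemin3), a subunit of the SMN complex that assembles spliceosomal snRNPs, came next with 1 region in its last exon (chr1:111765808-111767165). Its folds were 12.3, 11.8, 15.9, 13.3 and 13.7 in T24 and 9.78, 13.7, 8.62, 9.74 and 12.3 in T24R2, overlapping ranges. The log2 difference was -0.42 ± 0.22 (SE, limma adjusted p = 0.416).

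DDX19B, an ATPase that releases mRNPs at the nuclear pore, had a 3′UTR region 1240 nt past the stop codon with folds of 13.4, 6.05, 14.7, 6.19 and 12.7 in T24 and 10.9, 15.4, 9.62, 14.1 and 8.72 in T24R2. A weaker region lay 75.5 nt past the stop codon, at mean folds of 5.46 and 5.39. Its neighbour DDX19A, almost identical in its coding sequence, had a region 72 nt past its stop codon with mean folds of 3.75 and 5.40, where another annotated gene overlaps it. Since only uniquely mapped reads were used, peaks in stretches shared by DDX19A and DDX19B are uncertain.

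The 3′UTR region of DDX23, a spliceosomal helicase needed before the first catalytic step, had folds of 9.56, 4.75, 11.96, 15.8 and 12.9 in T24 and 9.67, 13.9, 6.56, 9.40 and 14.1 in T24R2. The exon 2 region of DHX34 had folds of 12.4, 9.43, 4.32, 19.2 and 7.30 in T24 and 11.3, 7.38, 12.9, 12.5 and 10.2 in T24R2. In both genes the lines overlapped, with means of 11.0 ± 4.16 and 10.7 ± 3.24 for DDX23 and 10.5 ± 5.69 and 10.9 ± 2.22 for DHX34 (SD, n = 5 each).

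DDX5 and DDX17, paralogous coactivators that also act in splicing and microRNA processing, each had a region in the coding part of the last exon. The folds in DDX5 were 2.30, 2.56, 5.11, 3.12 and 2.23 in T24 and 2.48, 3.95, 2.27, 2.83 and 2.29 in T24R2, and those in DDX17 were 4.62, 2.99, 4.26, 4.33 and 2.69 and then 4.00, 5.58, 3.05, 3.61 and 3.61. Both regions were present in every library and stood low in the lists, at mean percentiles of 5.51 and 2.44 for DDX5 and 9.39 and 10.8 for DDX17 in T24 and T24R2. DDX21, which couples rRNA transcription to processing, had its constant region in the last exon at mean folds of 3.26 and 3.62. DHX9, a large helicase of transcription and circular RNA control, had no exonic peak.

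DDX3X, which helps translate mRNAs with structured 5′UTRs, had 1 region, 111 nt past its stop codon, with folds of 3.74, 2.89, 4.84, 4.52 and 4.24 in T24 and 4.67, 5.80, 3.18, 5.49 and 6.21 in T24R2. The log2 difference of 0.21 ± 0.23 (SE) did not pass (limma adjusted p = 0.741). DDX6, a translational repressor of P-bodies, had 4 regions, and in contrast to most members its strongest constant one lay in the 5′UTR.

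**Figure D3:**
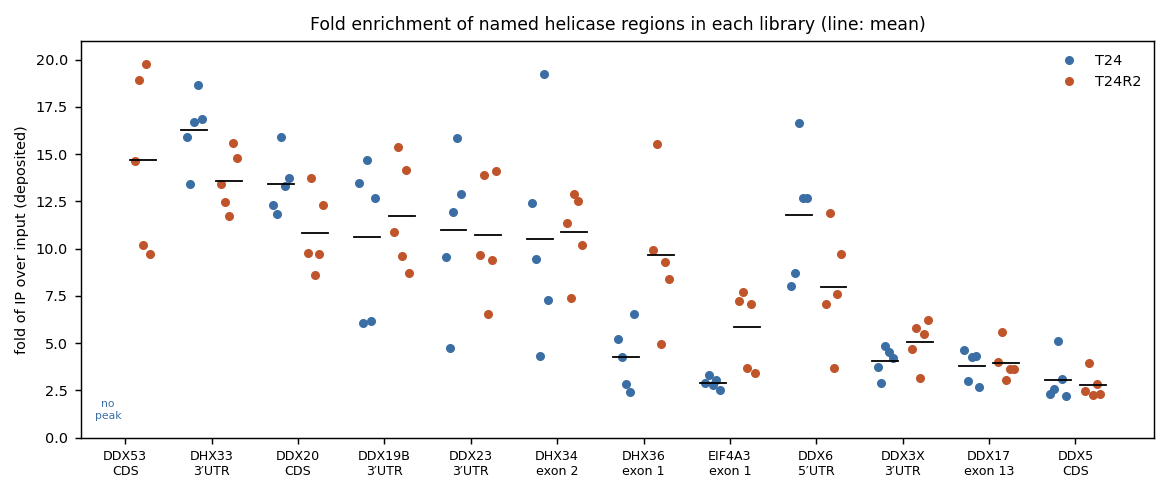
Fold enrichment of IP over input (y axis, as deposited) of 12 named helicase regions in each T24 and T24R2 library (points), with the mean of each line as a bar. DDX53 has points from T24R2 only, at 9.73 to 19.8, and the EIF4A3 points of the lines do not overlap.

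Fold enrichment was compared between lines in the 35 member regions that had a value in all 10 libraries. None passed at an adjusted p of 0.05 in limma in either direction, where 0.533% of the 9577 regions were higher and 0.324% lower in T24R2. At an unadjusted p under 0.05 there were 2 member regions with higher folds in T24R2, beside 7.70% of all regions, and 2 with higher folds in T24, beside 6.36%. The difference was positive in 21 of the 35 and negative in 14, with a median of 0.12, where the median of all 9577 regions was 0.02. In 1 member region the lines did not overlap, with higher values in T24R2, beside 2.76% of all regions. There were 0 of the opposite kind, beside 0.888%. Before centring, all common regions were higher by a median of 0.11 on the log2 scale in T24R2.

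The 4 regions with an unadjusted p under 0.05 are named after their values were seen, apart from EIF4A3 and DDX6. EIF4A3, the RNA clamp of the exon junction complex, which is deposited upstream of exon junctions, had its only region in exon 1 around the start codon (chr17:80146830-80147128). The folds were 2.89, 3.32, 2.77, 3.04 and 2.52 in T24 and 7.22, 7.71, 3.70, 7.10 and 3.45 in T24R2. The T24 libraries lay close together at 2.91 ± 0.30, and every T24R2 library was above them. These T24 folds were low, where the median fold of member peaks averaged 4.96 over the T24 libraries. Only called peaks have a fold, so lower values could not enter, which may narrow the T24 spread. The log2 difference was 0.83 ± 0.25 (SE), with an adjusted p of 0.120 from limma.

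DHX36, which unwinds G-quadruplexes, had a region in exon 1 (chr3:154324201-154324454), with a median summit 177 nt from the start codon. Its folds were 5.22, 4.27, 2.84, 2.41 and 6.52 in T24 and 9.94, 15.6, 4.98, 9.31 and 8.40 in T24R2, and T24R2 replicate 3 fell within the T24 range. The log2 difference was 1.09 ± 0.32 (SE, limma adjusted p = 0.109). The region at the other end of the DHX36 coding sequence, 98 nt before the stop codon, had mean folds of 8.62 and 11.6 with a difference of 0.46 ± 0.33.

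In the 5′UTR of DDX6 (exon 2, chr11:118786086-118786611) the folds were 8.01, 8.71, 16.7, 12.7 and 12.7 in T24 and 7.05, 11.9, 3.69, 7.58 and 9.73 in T24R2. The values overlapped, and the log2 difference was -0.70 ± 0.28 (SE, limma adjusted p = 0.244). In the 3′UTR of the same mRNA, 258 nt past the stop codon, the difference was 0.30 ± 0.23 (adjusted p = 0.627), so the estimates of the 2 regions had opposite signs, and their difference was not tested.

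The lowest difference was in a region assigned to DDX46, an ATPase of the early spliceosome (chr5:134854801-134855483). The folds were 12.9, 11.1, 11.4, 12.3 and 5.57 in T24 and 6.37, 7.25, 3.71, 5.36 and 5.53 in T24R2, with a log2 difference of -0.99 ± 0.27 (SE, limma adjusted p = 0.0811). The region straddles the end of DDX46, only 3 libraries had their summit in its exons, none of them of the canonical transcript, and it overlaps exons of C5orf24. Its peaks can belong to either gene. Without T24 replicate 5, whose fold was within the T24R2 range, the adjusted p was 0.0371.

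**Figure D4:**
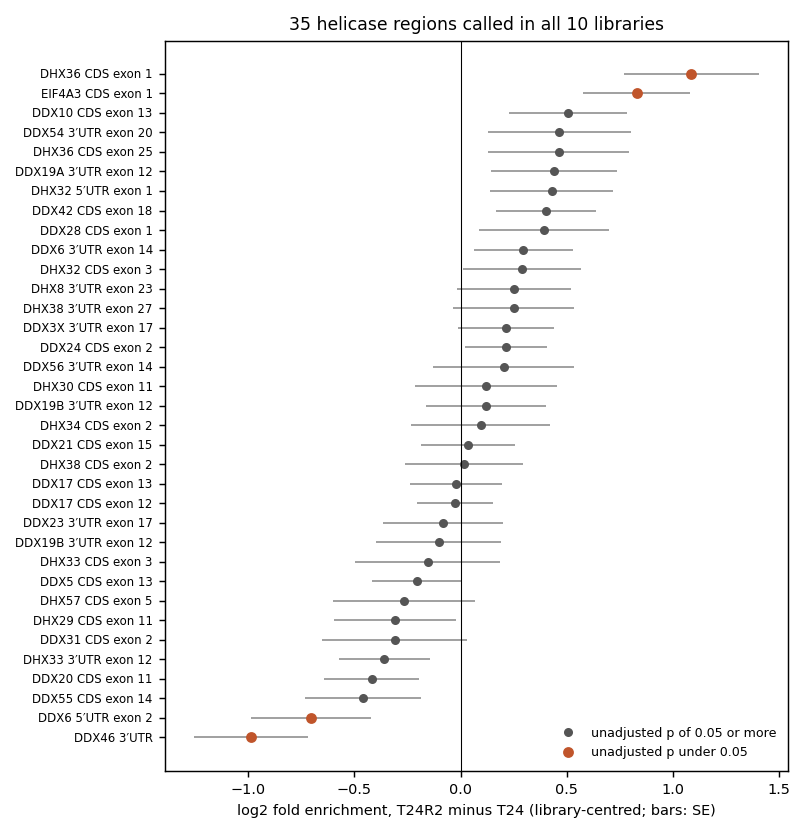
Log2 difference in library-centred fold enrichment, T24R2 minus T24 (x axis, with the SE as a bar), of the 35 helicase regions called in all 10 libraries (rows). The values run from -0.99 (DDX46) to 1.09 (DHX36), and the 4 coloured points have an unadjusted p under 0.05.

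Most helicase regions were in coding sequence. Of the 105 regions 73 were in the CDS, 69.5%, 22 in the 3′UTR, 7 in the 5′UTR and 3 in other exons, whereas 55.9% of the regions of all genes were in the CDS and 28.9% in the 3′UTR. Among the 35 constant regions 60.0% were in the CDS, against 56.8% of all constant exonic regions. By library, the CDS held the summits of 63.6 ± 5.64% (SD) of member peaks in T24 and of 64.0 ± 5.51% (SD) in T24R2, with n = 5 for both, a difference smaller than the spread between libraries, and for all genes it was 55.3% and 55.2%.

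Positions within the transcripts were described in the same way. Of the 100 regions on a canonical transcript 49 were in an exon of at least 400 nt, while 66.4% of those of all genes were, and 36 were in the last exon, against 45.8%. Within 200 nt of the stop codon there were 21, against 21.03% of all. Examples in short exons were those of DDX54, whose regions in exons 13, 15, 16, 18 and 19 lay in exons of 105 to 231 nt. DDX54, DDX17 and DHX34 had 6 regions each, the highest number, and DHX33 and DHX30 had 5 each. In DHX33 the regions were spread from exon 1 to the 3′UTR, and in DHX30, a mitochondrial ribosome assembly factor, 1 of the 5 was constant, in exon 11 (837 nt), at mean folds of 8.34 and 9.23.

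**Figure D5:**
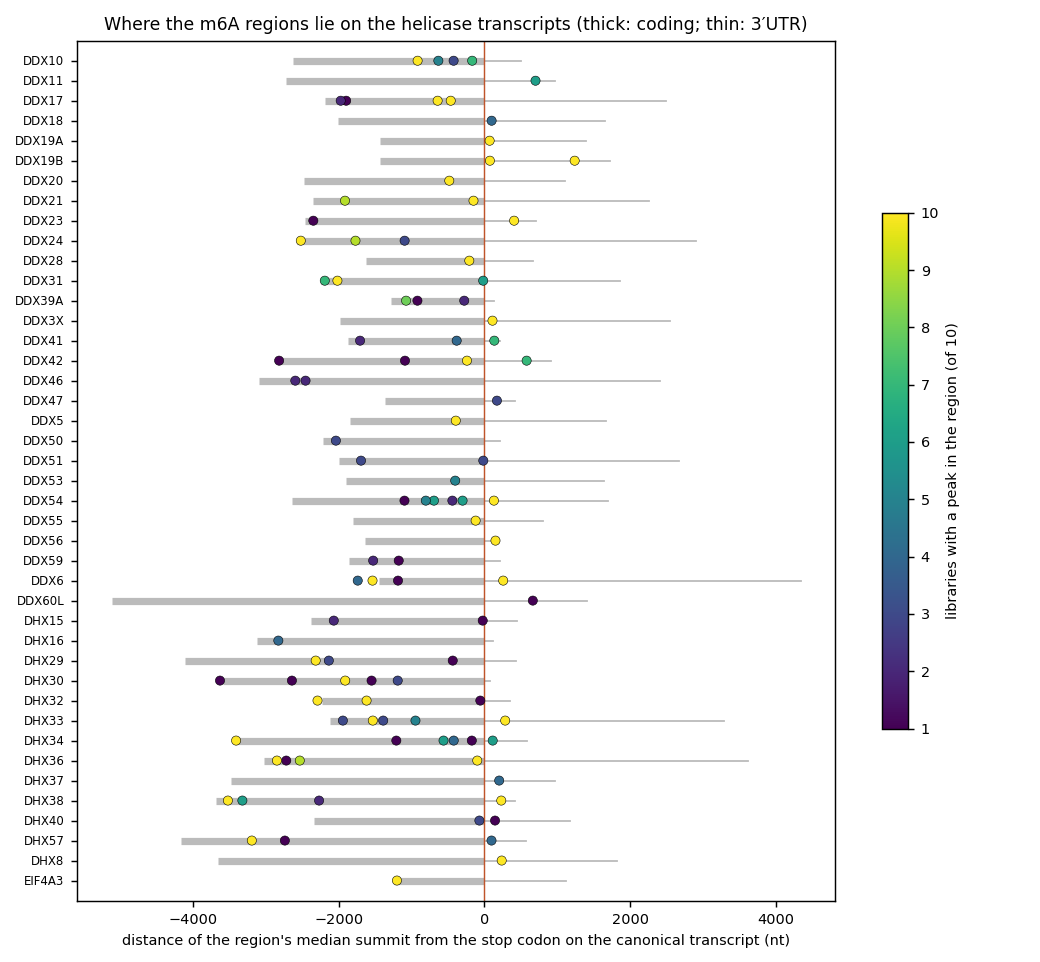
Position of the 100 member regions that lie on a canonical transcript (points), as the distance of the median summit from the stop codon (x axis, nt), for each helicase (rows). Thick bars are coding sequence, thin lines are 3′UTR, points left of a thick bar are in the 5′UTR, and lighter colour means more of the 10 libraries.

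Codons for the letters that name the families, called the motif here, were compared with the median summit of each region, not its full width. The translated canonical sequence held DEAD in 33 members and DEAH in 9, and 14 members, such as DDX21 and DHX36, had neither string. Only the string was matched, and whether it lay in the ATP-binding core was not checked. In DHX29 the string was DEAD, at residue 1119 of 1369, and its 3 CDS regions are among those counted. Of the 50 CDS regions in members with a motif, 2 had their median summit within 100 nt of it, 12 nt away in DHX33 and 74 nt away in DDX24. By median summit 22 regions lay upstream of the motif and 28 downstream. A wide region can still span the motif, as in DDX53, whose median summit lay 370 nt away. The share that would be near the motif without any preference was not worked out.

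A DRACH site was searched for on the strand of the gene within 50 nt of the summit. It was found in 96.7 ± 2.45% (SD) of the member peaks per T24 library and in 93.3 ± 3.01% (SD) per T24R2 library, with n = 5 for both. On the opposite strand of the same windows the shares were 57.3% and 63.8%. For all exonic peaks the sense shares were 90.4% and 90.0%, with 69.9% and 70.8% on the opposite strand. The more restricted GGAC, which is part of many DRACH sites, was found on the sense strand in 50.3% and 51.4% of member peaks, and on the opposite strand in 10.9% and 18.5%. For all exonic peaks the GGAC shares were 49.7% and 48.8% on the sense strand, and 24.3% and 25.5% on the opposite strand.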

How the data were processed

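MeRIP-seq reads were processed by the authors: STAR 2.7.0 on hg38 with an earlier GENCODE release, SAMtools 1.10 and MACS2 3.0.0a6, per the submitters' processing notes and the study's methods, with uniquely mapped reads only. Peaks were called per library. The fold enrichment of each peak is a ratio of IP over local input deposited by the authors, and the −log10 q-value is likewise a deposited value. The merged list of 43676 regions equals the bedtools 2.31.1 merge of the lists. Input libraries had no file to analyse.

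Members and gene lists were chosen with earlier results of these data known. Summits were placed with GENCODE 44 on all transcripts of a gene, and positions on Ensembl canonical transcripts. The lists carry no strand. Presence was tested by two-sided Fisher's exact test, and log2 fold, centred per library on regions called in all 10, by limma 3.58.1 (lmFit, eBayes with trend, R 4.3.3), both Benjamini-Hochberg adjusted over all features. In simulated data of 9577 regions limma called 21 of 100 regions changed by 1 on the log2 scale. It called 2 of 100 changed by 0.5, so most differences of either size would be missed.

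Named were 9 members of known role, members with an unadjusted Fisher p under 0.05 or a limma adjusted p under 0.05, the 5 with the highest percentile, the 5 with most regions and those without a peak. Alternatives were a −log10 q of at least 10, lists of equal length, canonical exons, a 50% cover, a replicate block, other scalings of the fold and leaving out each library. Counting error and depth could not be given.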

Additional observations from a re-analysis of the deposited data

Results flagged for a closer look

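In 33 groups of 5 libraries examined (measures of the members' peaks and folds of named regions), 1 had a library far from the rest, while chance alone sets apart about 1 group in 20. In the region shared by DDX46 and C5orf24, T24 replicate 5 had a fold of 5.57, and the other T24 libraries lay between 11.1 and 12.9.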

How the results depend on the processing

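The 9 member regions and 4 member genes called more often in T24R2 at an unadjusted Fisher p under 0.05 became 4 and 1 with a −log10 q of at least 10, and 5 and 2 with lists of equal length, both of which test fewer peaks. The adjusted count was 0 for regions and genes in every setting. Leaving out 1 library gave 9 to 15 regions (14 without T24R2 replicate 2 and 15 without T24R2 replicate 3) and 0 to 1 in the direction of T24 (1 without T24 replicate 1 and 1 without T24 replicate 2). Deviations of libraries with the same replicate number correlated by -0.04 to 0.12, so the numbers were not taken to pair the libraries. With the replicate block 0 regions and 0 genes had a p under 0.05, because the smallest p of that paired test is 0.0625, and in limma the replicate block called 0 member regions.

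The difference in marked members per library, T24R2 minus T24, was 7.6, 4 with lists of equal length and 9.6 with a −log10 q of at least 10. Under that q-value limit a mean of 25.9% of all protein-coding genes was marked in T24 and 32.0% in T24R2. Members marked in all libraries were 27, and 7 with a −log10 q of at least 10. The difference in 3′UTR share was -0.57 percentage points, 2.61 with a −log10 q of at least 10 and 2.91 with lists of equal length. That in the DRACH share was -3.39, and 1.09 for GGAC. In the fold comparison 0 regions passed in every setting except 1 lower in T24R2 without T24 replicate 5 (DDX46, log2 difference -1.18), a range of 0 to 1. None of the 6 fold differences examined singly (DHX36, EIF4A3, DDX46, DDX6, DHX33 and DDX20) changed sign under any alternative. Coverage of 50% was not tried for genes, which have no width of their own. The cause of these changes was otherwise not tested. Peak lists without read counts limit all of these values.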
